A study of Mus musculus with 7 samples.

Results

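The subject was a set of 9 genes used as marks of the B cell lineage, read in RNA from sorted splenic type 1 conventional dendritic cells (cDC1), the dendritic cells that cross-present antigen to CD8 T cells. The genes were Cd79a, Cd79b, Ms4a1, Pax5, Ebf1, Cr2, Fcrl1, Fcmr and Bank1. They were chosen by name, with 1 probe set per symbol, and all 9 were found among 19505 named genes, each with 1 probe set. Arrays labelled KO (4 arrays) came from CD11c-Cre; OPA1 flox mice, in which a Cre recombinase under CD11c control acts on the floxed gene for OPA1, the GTPase of inner mitochondrial membrane fusion. Arrays labelled WT (3 arrays) came from WT mice; whether these carried the Cre or the floxed allele is not said in the labels. All mice were C57BL/6 and carried B16-OVA tumors, a melanoma line that expresses ovalbumin, and the cells came from spleen. Age and whether each array was a separate mouse are not given in the labels, so the p-values below cover only array-to-array variation, part of which may be technical.

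B cells bind antigen through a membrane immunoglobulin that signals through the CD79A and CD79B chains, whose tyrosine motifs recruit the kinases SYK and LYN. EBF1 and PAX5 are the transcription factors that set and hold the B cell program, and CD20 (Ms4a1), the complement receptor CR2 and the Fc receptor-like proteins are carried on the surface of mature B cells. Spleen is rich in B cells, and how they were kept out of the sort is not given in the labels. In bulk RNA, fewer cells of a type and less RNA per cell cannot be told apart.

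Values were deposited on a log2 scale after RMA normalization, so a difference of 1 is a doubling of signal and the number of arrays limits the precision. The arrays labelled WT 1 and WT 2 stood apart from the others. Over transcript probe sets the correlation between them was 0.983, that with any of the other 5 arrays 0.928 to 0.956, and that among the other 5 arrays 0.988 to 0.993. Opa1, the targeted gene, read 7.70, 7.10, 6.85 and 8.24 on KO 1 to KO 4, against 8.14, 8.80 and 9.15 on WT 1 to WT 3, so the array labelled KO 4 lay above the array labelled WT 1. The difference in Opa1 was -1.22 (limma, adjusted p = 0.223), and the position of its probes relative to the floxed exons was not analysed here. The list of 13 melanocyte and B16 melanoma genes averaged 8.11, 7.90, 7.71 and 7.31 on KO 1 to KO 4, against 11.65, 12.00 and 9.10 on WT 1 to WT 3. The 16 measured cDC1 markers averaged 11.79 to 11.92 on the KO arrays, against 11.07, 9.22 and 11.78 on WT 1 to WT 3, so the cDC1 label was borne out least by WT 2. Xcr1, the cDC1 chemokine receptor, read 12.70 to 12.79 on the KO arrays, against 12.12, 7.97 and 12.76 on WT 1 to WT 3. The differences of the B cell genes are therefore given with and without WT 1 and WT 2.

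Of the 9 genes, 7 stayed under the 95th percentile of the array's negative control probe sets on all 7 arrays, and Fcrl1 and Bank1 exceeded it on some. The negative controls were 5222 probe sets marked as such in their identifiers. Fcrl1, a B lineage surface receptor of the Fc receptor-like family, exceeded 95.8%, 97.8%, 97.2% and 93.9% of them on KO 1 to KO 4, against 92.1%, 90% and 97.1% on WT 1 to WT 3. Bank1, a scaffold protein of B cell receptor signalling, exceeded 89.3%, 92.9%, 95.3% and 90.2% on KO 1 to KO 4, against 75.3%, 83.5% and 95.4% on WT 1 to WT 3. Those 2 genes thus passed the 95th percentile of the controls on 4 arrays (Fcrl1) and 2 arrays (Bank1). Fcmr, the Fc receptor for IgM, exceeded 86.1% to 91.0% of the controls over the 7 arrays and Cd79a 75.0% to 85.5%. Ebf1 exceeded 73.5% to 81.9%, Pax5 67.2% to 77.6% and Ms4a1 61.6% to 78.3%. Cd79b exceeded 59.9% to 70.2% and Cr2 58.1% to 73.3%. Each of the 9 genes was above the control median on all 7 arrays, as were 71.9% to 82.3% of all genes. Of 63 values, 9 genes on 7 arrays, 6 (9.52%) lay above the 95th percentile, whereas between 18.2% and 32.0% of all genes did so on an array. Probe sets differ in how strongly they bind their target, so these shares place a value within its own array and do not rank the genes by abundance.

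**Figure D1:**
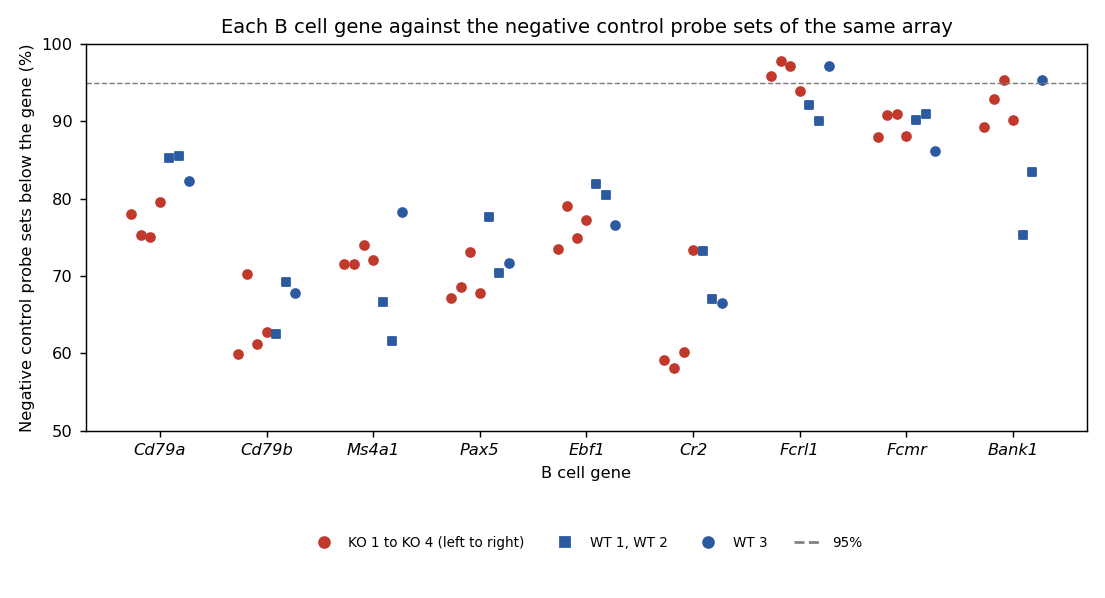
Share of the 5222 negative control probe sets of the same array (%, vertical axis) that lie below each B cell gene (horizontal axis), 1 point per array, KO in red and WT in blue, in the order KO 1 to KO 4 and WT 1 to WT 3. Fcrl1 and Bank1 reach the dashed line at 95%, and the other 7 genes stay under it on all arrays.

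The chains of the receptor complex did not separate KO from WT. Cd79a, which encodes the signalling chain Ig-alpha, read 8.49, 7.88, 8.06 and 8.61 on KO 1 to KO 4, against 8.24, 8.26 and 8.56 on WT 1 to WT 3. Cd79b, its partner Ig-beta, read 7.41, 7.55, 7.26 and 7.60 on KO 1 to KO 4, against 6.81, 7.22 and 7.68 on WT 1 to WT 3. In both genes the groups overlapped: KO 2 was the lowest array for Cd79a, and WT 1 and WT 2 were the lowest for Cd79b. The difference, KO minus WT, was -0.09 for Cd79a (95% interval -0.54 to 0.36; limma, adjusted p = 0.797) and 0.22 for Cd79b (-0.24 to 0.69; limma, adjusted p = 0.529).

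The negative controls also differed between the arrays, with medians of 6.88, 6.49, 6.67 and 6.88 on KO 1 to KO 4, against 6.19, 6.26 and 6.71 on WT 1 to WT 3. They were lowest on WT 1 and WT 2 and, among the KO arrays, on KO 2. The median of the GC-content background probe sets, another kind of control, was nearly level. It was 5.62, 5.62, 5.59 and 5.58 on KO 1 to KO 4, against 5.62, 5.58 and 5.56 on WT 1 to WT 3. Whether the negative controls track array background was not tested, so centring on them is a change of scale only. Measured from each array's negative control median, Cd79a stood at 1.61, 1.38, 1.40 and 1.74 on the KO arrays, against 2.05, 2.00 and 1.85 on the WT arrays. On that scale every KO array lay below every WT array. The same held for 7.82% of all genes, and for no other of the 9. The difference of Cd79a on that scale was -0.43 (limma, adjusted p = 0.238). That scaling moved the median difference of all genes to -0.28, against 0.06 as deposited, and gave differences below 0 for Cd79b, Pax5, Ebf1 and Cr2 as well.

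The transcription factors read almost alike in the groups. Pax5, which commits cells to the B lineage, read 7.84, 7.48, 7.93 and 7.87 on KO 1 to KO 4, against 7.72, 7.29 and 7.92 on WT 1 to WT 3. Ebf1, which acts upstream of Pax5, read 8.17, 8.12, 8.06 and 8.47 on KO 1 to KO 4, against 8.01, 7.92 and 8.19 on WT 1 to WT 3. Both sets of values overlapped, with WT 2 the lowest array for each. The differences were 0.14 for Pax5 (95% interval -0.27 to 0.54; limma, adjusted p = 0.661) and 0.16 for Ebf1 (-0.14 to 0.46; limma, adjusted p = 0.475). In signal, these intervals leave out a difference as large as that of Fcrl1 or Bank1 below. Pax5 and Ebf1 lay under the 95th percentile of the controls. As RMA understates differences of dim genes, the intervals do not bound a difference in RNA.

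Of the surface receptors, Cr2 varied most among the KO arrays, and Ms4a1 was split between the WT arrays. Cr2, which in mice encodes the complement receptors CD21 and CD35, read 7.37, 6.90, 7.21 and 8.19 on KO 1 to KO 4, against 7.41, 7.09 and 7.60 on WT 1 to WT 3. KO 4 was the highest array and KO 2 the lowest, and every WT array lay between them. The difference was 0.05 (95% interval -0.62 to 0.72; limma, adjusted p = 0.931), and without KO 4 it was -0.21. Ms4a1, which encodes CD20, read 8.06, 7.64, 8.0 and 8.14 on KO 1 to KO 4, against 7.02, 6.82 and 8.31 on WT 1 to WT 3. WT 1 and WT 2 were the lowest of all arrays and WT 3 the highest, so the SD was 0.81 in WT against 0.22 in KO. The difference was 0.58 (95% interval -0.20 to 1.36; limma, adjusted p = 0.350).

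Fcmr was the only one of the 9 genes whose groups did not overlap. It read 9.27, 9.04, 9.28 and 9.28 on KO 1 to KO 4, against 8.70, 8.76 and 8.85 on WT 1 to WT 3. Every KO array thus lay above every WT array, a pattern that 7.85% of all genes also showed. Fcmr averaged 9.22 ± 0.12 (SD, n = 4) in KO and 8.77 ± 0.08 (SD, n = 3) in WT, a 1.36-fold difference of 0.45 log2 units with a standard error of 0.104. It missed the adjusted threshold (limma, adjusted p = 0.223). It was also the gene with the least WT spread, and WT 3 lay 0.36 below the KO mean when set against it alone. Measured from each array's control median the difference was 0.11 (limma, adjusted p = 0.719).

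**Figure D2:**
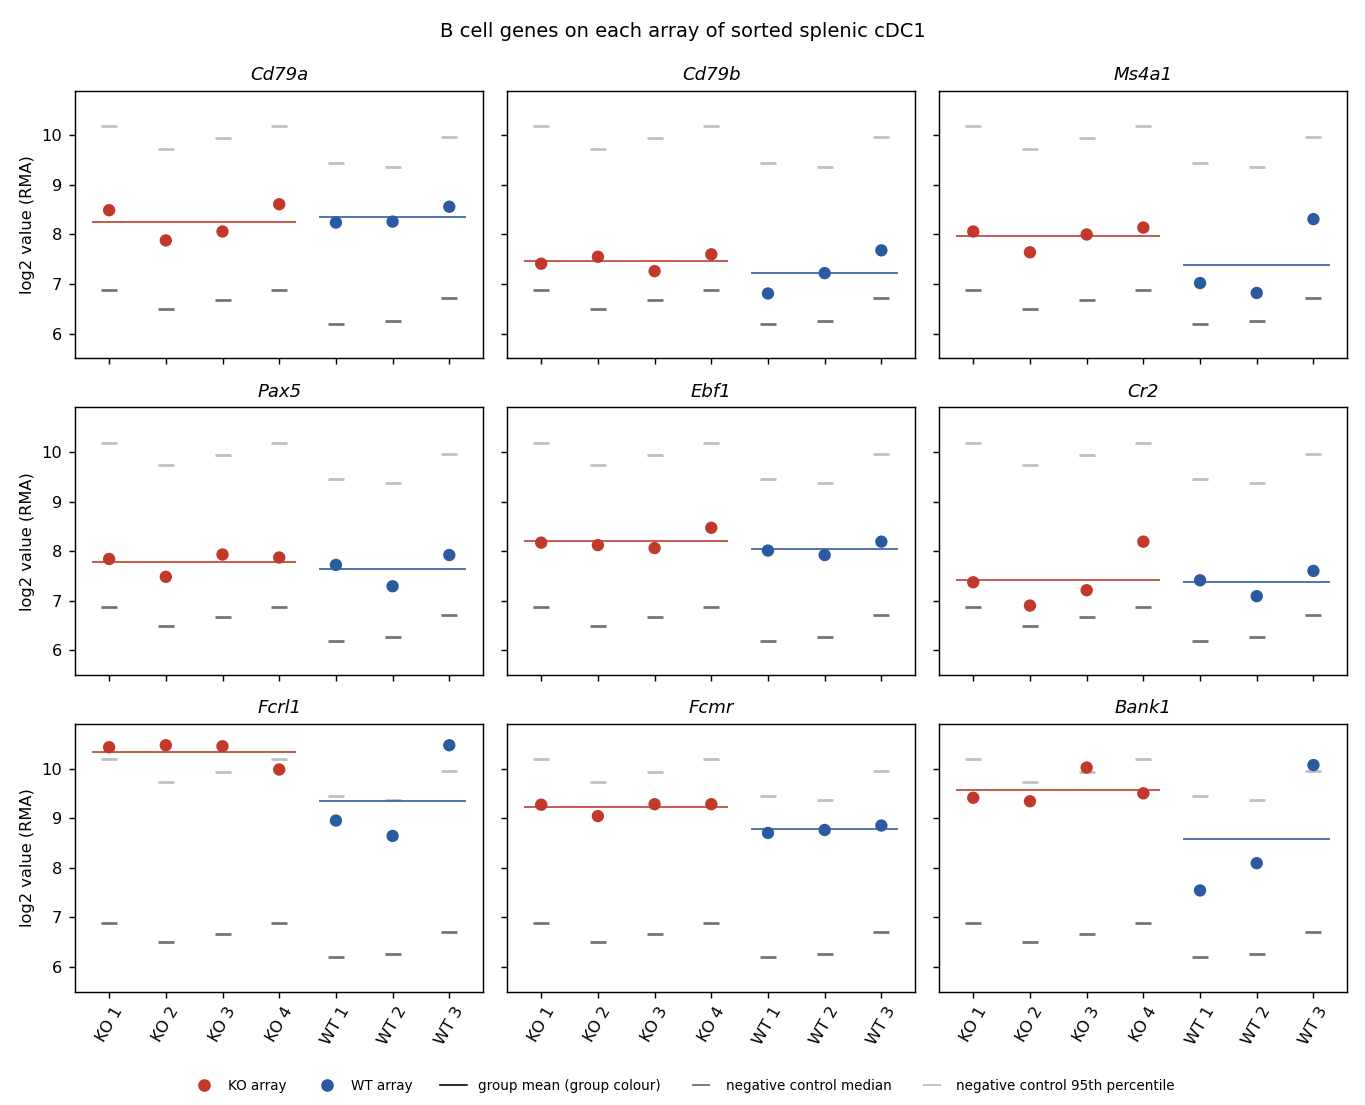
Log2 value of each of the 9 B cell genes (vertical axis) on KO 1 to KO 4 (red) and WT 1 to WT 3 (blue), with group means as lines and, per array, the median (dark dash) and the 95th percentile (light dash) of the negative control probe sets. Fcrl1, Bank1 and Ms4a1 are low on WT 1 and WT 2 alone, and Fcmr is lower on all 3 WT arrays. Cd79b and Ebf1 are also lowest on WT 1 and WT 2, by gaps of only 0.04 and 0.06. The groups overlap in every gene except Fcmr.

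Fcrl1 and Bank1 had the widest differences between the group means, and both rested on the arrays labelled WT 1 and WT 2. Fcrl1 read 10.43, 10.47, 10.45 and 9.98 on KO 1 to KO 4, against 8.95, 8.64 and 10.47 on WT 1 to WT 3. Bank1 read 9.41, 9.34, 10.02 and 9.50 on KO 1 to KO 4, against 7.54, 8.09 and 10.07 on WT 1 to WT 3. In both genes WT 3 was at or just above the highest KO array, while WT 1 and WT 2 lay below every other array, by 1.03 for Fcrl1 and 1.25 for Bank1. Fcrl1 averaged 10.33 ± 0.24 (SD, n = 4) in KO and 9.35 ± 0.98 (SD, n = 3) in WT, a difference of 0.98 with a standard error of 0.401 (limma, adjusted p = 0.245). Bank1 averaged 9.57 ± 0.31 in KO and 8.57 ± 1.33 in WT, a difference of 1.0 with a standard error of 0.537 (limma, adjusted p = 0.318). Neither passed the threshold. On the same arrays Cd8a, which marks resident splenic cDC1, read 11.95 to 12.12 in KO, against 7.89, 6.96 and 12.11 on WT 1 to WT 3.

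The stretches before the transcription start of these genes are shown because both genes were low on the same arrays. The sequences are RefSeq's, build GRCm38.p6, 250 bases 5′ to 3′ on the gene's strand, and capitals mark matches to the motifs named below. The stretch of Fcrl1 is chr3:87376137-87376386 (plus strand) and that of Bank1 is chr3:136326067-136326316 (minus strand).
Fcrl1: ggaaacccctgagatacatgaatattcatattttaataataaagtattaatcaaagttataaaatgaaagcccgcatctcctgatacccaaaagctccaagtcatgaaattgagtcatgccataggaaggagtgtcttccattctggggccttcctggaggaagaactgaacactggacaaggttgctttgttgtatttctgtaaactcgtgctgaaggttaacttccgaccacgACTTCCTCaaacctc
Bank1: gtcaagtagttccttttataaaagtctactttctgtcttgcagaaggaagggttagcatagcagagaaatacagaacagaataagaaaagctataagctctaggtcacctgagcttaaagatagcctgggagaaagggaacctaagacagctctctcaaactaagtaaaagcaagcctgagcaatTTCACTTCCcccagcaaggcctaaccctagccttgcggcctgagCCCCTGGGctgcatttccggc
Searched on both strands were CCCNNGGG (the core of the EBF1 palindrome), ATGCAAAT (the octamer), GAGGAAGT (a site of PU.1 and Spi-B) and GGAANNGAA (the core of the ETS-IRF composite), with no overlap between matches here. Fcrl1 held the PU.1 and Spi-B site, which 2.44% of 32851 promoter entries of the same length held. Bank1 held the core of the ETS-IRF composite (6.99% of entries) and the EBF1 core (11.8%). The octamer, which 1.60% of entries held, had no match in the 8 entries found for 7 of the 9 genes, and the other 6 of these entries held none of the 4 motifs. A match describes the letters and is not a measured binding site.

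Over all 9 genes no comparison of KO with WT passed the adjusted threshold of 0.05 in limma, nor did any of 19505 genes (0%). At an unadjusted p under 0.05 stood 2 of the 9, Fcrl1 and Fcmr, both higher in KO; by that measure 8.98% of all genes were higher in KO and 19.6% differed in either direction. After centring on the negative controls, the mean was higher in KO for 4 of the 9 genes. The median difference was then -0.12 over the 9 genes, against -0.28 over all genes. As deposited, the mean was higher in KO for 8 of the 9 genes and for 59.9% of all genes. The median difference as deposited was 0.22 over the 9 genes and 0.06 over all genes. Without WT 3, the fit called 4 genes higher in KO: Bank1 at 1.75 (limma, adjusted p = 0.000544), Fcrl1 at 1.54 (limma, adjusted p = 0.00028), Ms4a1 at 1.04 (limma, adjusted p = 0.00155) and Fcmr at 0.49 (limma, adjusted p = 0.0162). That fit called 11.4% of all genes higher in KO. Without WT 1 and WT 2, the median difference was -0.18, and the mean was higher in KO for 2 of the 9 genes (55.3% of all genes). In that setting WT 3 is the sole WT array, and the fit takes its variance to be that of the KO arrays. WT 3 lay within the KO range for 5 of the 9 genes, as for 57.7% of all genes. It lay above the range for Cd79b, Ms4a1 and Bank1, and below it for Fcmr.

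**Figure D3:**
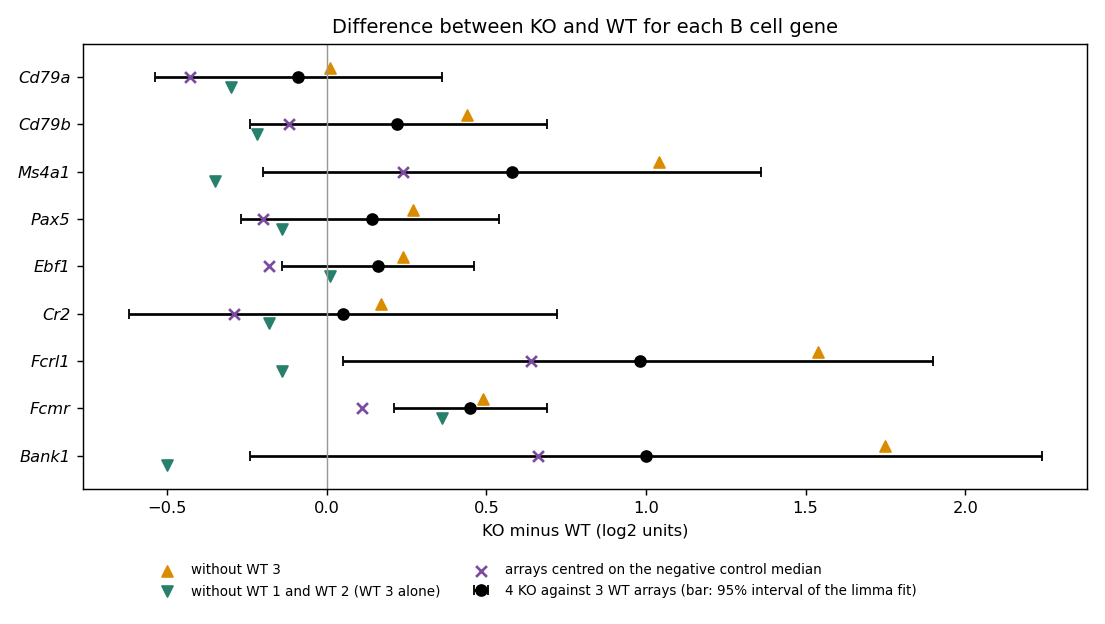
KO minus WT in log2 units (horizontal axis) for each B cell gene, with the 95% interval of the limma fit of 4 KO and 3 WT arrays in black, and the difference without WT 3 (orange), without WT 1 and WT 2 (green) and after centring on the negative control median (purple). Without WT 1 and WT 2 the differences of Fcrl1, Bank1 and Ms4a1 lie below 0.

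The mean of the 9 genes also differed between arrays of 1 group. It stood at 8.49, 8.27, 8.47 and 8.63 on KO 1 to KO 4, against 7.82, 7.79 and 8.63 on WT 1 to WT 3. WT 3 was the highest WT array for all 9 genes, as for 39.0% of all genes. WT 1 and WT 2 were both below the other 5 arrays for 6 of the 9 genes, Cd79b, Ms4a1, Ebf1, Fcrl1, Fcmr and Bank1, and for 22.0% of all genes. Among the KO arrays, KO 2 was the lowest for 6 of the 9 (23.7% of all genes) and KO 4 the highest for 5 (21.6% of all genes). Fcrl1 ran the other way, with KO 4 lowest and KO 2 highest. The negative control median was likewise lowest on KO 2 among KO arrays, and on WT 1 and WT 2 among WT arrays; its part in these values was not tested.

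Genes outside the B cell and marker lists whose profile came closest to the mean profile of the 9 were Larp4b, Srsf11, Plek, Ubtd2, Clk1 and Arid4b. Likeness was the root mean square difference over the 7 arrays after each gene's own mean was subtracted, and it was 0.052 to 0.064 log2 units for these 6. The mean profile itself spanned 0.84. Clk1, a kinase of splicing factors, read 12.71, 12.57, 12.63 and 12.81 on KO 1 to KO 4, against 11.94, 12.01 and 12.77 on WT 1 to WT 3. Srsf11, a splicing factor, read 12.43, 12.27, 12.30 and 12.49 on KO 1 to KO 4, against 11.73, 11.69 and 12.50 on WT 1 to WT 3. Plek encodes pleckstrin, a substrate of protein kinase C in blood cells. All 6 were lowest on WT 1 and WT 2, as 6 of the 9 B cell genes and 22.0% of all genes were. The choice by likeness made this so for the 6, since the mean profile was itself lowest on those arrays.

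Other genes of the B cell surface gave a mixed picture. Of 22 listed, 19 were measured, 11 (57.9%) with a higher and 8 with a lower mean in KO, where 59.9% of all genes had a higher mean, and 0 passed the adjusted threshold in limma (2 higher and 1 lower at an unadjusted p under 0.05). The median difference was 0.19, against 0.06 over all genes, and without WT 1 and WT 2 it was 0.04, against 0.02. Cd22, an inhibitory receptor of B cells, read 8.36, 7.97, 8.38 and 8.52 on KO 1 to KO 4, against 7.44, 7.62 and 8.38 on WT 1 to WT 3. It thus followed Ms4a1, with WT 1 and WT 2 lowest. Fcer2a, the low-affinity IgE receptor CD23 of follicular B cells, read 7.86 to 8.08 on the KO arrays, against 7.77, 7.63 and 7.75 on WT 1 to WT 3. Ccr6, a chemokine receptor of B cells and other leukocytes, ran the other way, with 8.03, 7.87, 7.68 and 8.02 on KO 1 to KO 4, against 8.78, 8.57 and 8.17 on WT 1 to WT 3. For Ccr6 every KO array lay below every WT array, as in 5.92% of all genes (difference -0.61; limma, adjusted p = 0.223). Fcrla, an intracellular Fc receptor-like protein of B cells, was chosen after its values were seen. It read 11.10, 10.77, 10.98 and 10.92 on KO 1 to KO 4, against 11.00, 7.28 and 11.03 on WT 1 to WT 3. For Fcrla, WT 2 was low and WT 1 lay within the range of the KO arrays, whereas Fcrl1 was low on both WT 1 and WT 2.

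Genes of B cell receptor signalling and B lineage transcription factors, many of which dendritic cells also use, had a higher mean in KO in 15 of 21 measured (71.4%, against 59.9% of all genes) and a lower one in 6. None passed the adjusted threshold in limma (7 higher and 1 lower at an unadjusted p under 0.05, where 8.98% of all genes were higher), and the median difference was 0.30. Without WT 1 and WT 2 the mean was higher in KO for 10 of 21, and the median difference was -0.01. Cd79a and Cd79b count in this list as well. Bcl11a, a transcription factor of B cells and of dendritic cells, read 10.40, 10.71, 10.70 and 10.40 on KO 1 to KO 4, against 8.90, 9.04 and 10.46 on WT 1 to WT 3. Foxo1, a transcription factor needed early in B cell development, read 10.18, 10.21, 10.31 and 10.16 on KO 1 to KO 4, against 8.58, 8.68 and 10.20 on WT 1 to WT 3. Both had the shape of Fcrl1, with WT 3 beside the KO arrays, and without WT 1 and WT 2 they differed by 0.09 and 0.02. Plcg2, the phospholipase downstream of the B cell receptor, differed by 0.60 (limma, adjusted p = 0.227), and Vav1, a guanine nucleotide exchange factor, by 0.71 (limma, adjusted p = 0.224). When WT 1 and WT 2 were left out, Plcg2 differed by 0.01 and Vav1 by 0.06. Irf4, which plasma cells and mature dendritic cells use, read 7.89, 6.90, 7.87 and 8.16 on KO 1 to KO 4, against 8.35, 9.24 and 8.44 on WT 1 to WT 3. The groups of Irf4 did not overlap, with KO lower, as in 5.92% of all genes (difference -0.97; limma, adjusted p = 0.223). When WT 1 and WT 2 were left out, Irf4 differed by -0.74.

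Of 16 immunoglobulin genes listed, 5 were measured by a named probe set, and the constant regions of the heavy and light chains were not among them. All 5 had a higher mean in KO (59.9% of all genes did), with a median difference of 0.25, and 0 passed the adjusted threshold in limma (2 at an unadjusted p under 0.05). Jchain, the joining chain of secreted IgM and IgA, had the widest range. It read 10.88, 10.05, 10.69 and 11.75 on KO 1 to KO 4, against 6.70, 6.96 and 11.87 on WT 1 to WT 3. WT 3 was the highest array of all, WT 1 and WT 2 the lowest, and among the KO arrays KO 4 was the highest and KO 2 the lowest, as for Ms4a1. The difference was 2.33 with a standard error of 1.17 (limma, adjusted p = 0.293), and without WT 1 and WT 2 it was -1.02 (limma, adjusted p = 0.842). In that setting 3 of the 5 immunoglobulin genes had a higher mean in KO. Igll1, the surrogate light chain component of precursor B cells, read 8.68 to 8.96 on the KO arrays, against 8.36, 8.14 and 8.57 on WT 1 to WT 3. Every KO array thus lay above every WT array, as in 7.85% of all genes. When WT 1 and WT 2 were left out, Igll1 differed by 0.22. Vpreb3 read 7.13 to 7.67 on the KO arrays, against 7.26 to 7.49 on the WT arrays, so its groups overlapped.

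Markers of other cells that a splenic sort could hold did not all follow the B cell genes. The mean of the 11 measured T cell markers was 8.34, 7.89, 8.27 and 8.64 on KO 1 to KO 4, against 8.14, 8.17 and 8.66 on WT 1 to WT 3. The mean of the 9 NK cell markers was 8.38, 7.37, 8.17 and 8.37 on KO 1 to KO 4, against 7.36, 7.88 and 8.53 on WT 1 to WT 3. Both lists were lowest among KO arrays on KO 2 and highest among WT arrays on WT 3, as were the B cell genes. The 9 plasma cell markers, which share Jchain and Irf4 with lists above, averaged 7.88 to 8.56 on the KO arrays, against 8.13 to 8.63 on the WT arrays. The 10 plasmacytoid dendritic cell markers averaged 9.06 to 9.33 on the KO arrays, against 8.84, 8.97 and 9.58 on WT 1 to WT 3. On WT 3 both of these lists stood above all KO arrays, as did the T cell, NK cell and monocyte and macrophage lists. The 13 monocyte and macrophage markers averaged 8.36 to 8.83 on the KO arrays, against 8.70, 9.99 and 9.14 on WT 1 to WT 3. Neutrophil markers (10 genes) averaged 7.42 to 7.97 on the KO arrays, against 7.15 to 7.57 on the WT arrays, and the 4 measured erythroid markers 8.55 to 8.72, against 8.21 to 8.49. As deposited, in each of these marker lists, and in those of melanoma and cDC1, 0 genes passed the adjusted threshold in limma. At an unadjusted p under 0.05 stood 0 T cell and 0 NK cell markers, 1 neutrophil and 2 erythroid markers higher in KO, and 4 plasma cell, 2 plasmacytoid and 3 monocyte and macrophage markers lower in KO. By the same measure 4 of 16 cDC1 markers were higher and 13 of 13 melanoma genes lower in KO. Of all 19505 genes, 1752 were higher and 2068 lower in KO by that measure. Without WT 1 and WT 2 the median difference was -0.32 for T cell, -0.43 for NK cell, -0.49 for plasma cell, -0.34 for plasmacytoid, -0.48 for monocyte and macrophage, 0.14 for neutrophil and 0.18 for erythroid markers. The part that other cells had in the B cell values was not tested.

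**Figure D4:**
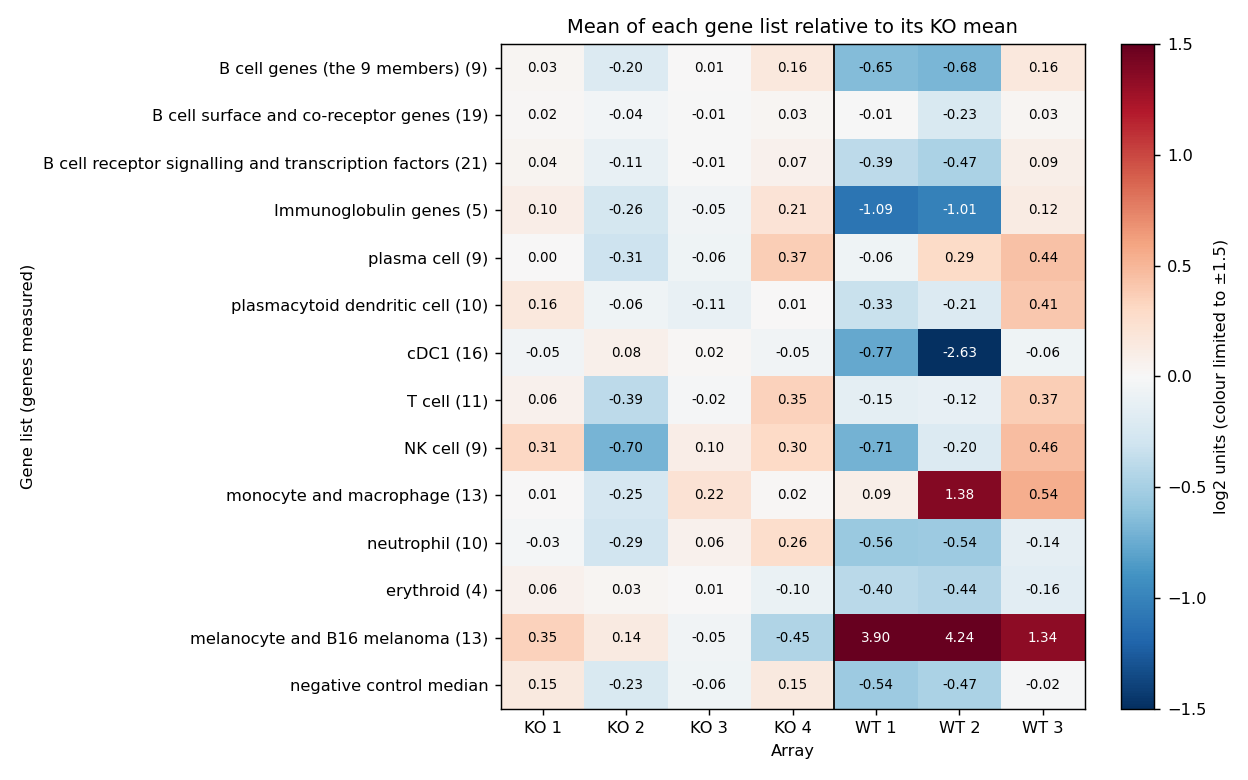
Mean log2 value of each gene list (rows, with the number of genes measured) on each array (columns) relative to that list's KO mean, and the negative control median in the last row. The B cell genes stand at -0.65, -0.68 and 0.16 on WT 1 to WT 3, and the negative control median at -0.54, -0.47 and -0.02.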

How the data were processed

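The authors deposited 1 table of 28846 probe sets on 7 arrays, on a log2 scale read from its values (3.68 to 14.28); the submitters' processing notes name RMA and, as software, Affymetrix Expression Console 1.1. RNA was labelled with a whole-transcript kit, per the labels' protocols. Which arrays were normalized together and the genome build are not given in the sources used here. RMA understates differences of dim genes.

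Groups came from sample titles, and all 7 columns were mapped. The platform annotation named 19572 of 22206 transcript probe sets (all matched by gene identifier, 0 symbols changed); the probe set with the highest mean was kept per symbol, which left 19505 genes. KO was compared with WT in limma 3.58.1 (R 4.3.3; lmFit and eBayes without covariates), p-values were adjusted by Benjamini-Hochberg across the 19505 genes, and 0.05 was the threshold. The script was tested on simulated data. Negative controls (5222 of 6640 control probe sets) carry "neg" in their identifiers. Members and lists were chosen with earlier results of these data known. The rule for named genes took Opa1, the 9 members, up to 6 genes per B cell list by smallest unadjusted p, 3 per marker list by highest mean and the 6 closest profiles, of which not all are printed; Xcr1, Cd8a and Fcrla were chosen after their values were seen. Alternatives were single arrays left out, WT 1 and WT 2 left out, a replicate block, 3 scalings, a dim filter, 2 variance models, all probe sets and other control limits.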

Additional observations from a re-analysis of the deposited data

Results flagged for a closer look

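In Fcrl1, KO 4 lay apart from the other KO arrays, at 9.98 against 10.43 to 10.47. In Fcmr, KO 2 lay apart from the other KO arrays, at 9.04 against 9.27 to 9.28. In each case the gap to the nearest array took up more of the range of the 4 arrays (0.91 and 0.96) than Dixon's 95% critical value allows. Chance marks about 1 in 20 groups in this way, and 2 of 47 genes, list means and control values that were checked were marked. KO 4 was also the KO array with the highest Cr2, Cd79a, Ms4a1 and Jchain, and KO 2 the one with the lowest.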

How the results depend on the processing

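The number of arrays and signals close to the negative controls limit these comparisons. Leaving out 1 array at a time gave 0 to 4931 genes called over all genes (0% to 25.3%). It gave 0 to 4 of the 9 B cell genes and 0 to 67 genes of the other lists. In each case the highest value came without WT 3, with 0 without any other single array. The share of values above the controls ranged from 7.41% to 11.1% in these settings. Array weights gave WT 3 a weight of 0.241 and the other arrays 0.56 to 2.04. With them 4458 genes (22.9%), 55 genes of the other lists and 4 B cell genes were called. These 4 were Bank1, Fcrl1, Ms4a1 and Fcmr, as without WT 3. How many distinct genes the other lists held was not counted, so their counts cannot be set against the shares of all genes. The median difference of the B cell genes moved to -0.18 without WT 1 and WT 2, to -0.27 without these and KO 4 (added after the data had been seen) and to -0.12 after centring on the negative controls, against 0.22 in the chosen setting. It was 0.44 without WT 3, 0.46 with array weights and 0.45 with the dim filter. With the 90th percentile of the controls as limit 23.8% of values lay above it, and 0% did with the 99th percentile or with all control probe sets. The GC-content background probe sets, added after the data had been seen, gave 19%. Same-numbered arrays deviated from their group means with correlations of -0.04, 0.05 and -0.02 over genes. The WT deviations hold the split of WT 1 and WT 2 from WT 3, so these values cannot tell whether the numbers pair the arrays. With the replicate number as a block 0 genes were called and the median difference was 0.17. The dim filter kept 5 of the 9 genes. Fcmr stayed higher in KO in all 17 alternatives it entered, Fcrl1 and Bank1 in 15 of 17 and Cd79a in 2 of 17. As the groups of Fcmr did not overlap, only the scalings could have changed its direction. For the genes they held, the dim filter, the variance model without array weights and the use of all probe sets repeat the difference of the chosen setting. The replicate block repeats the difference found without KO 4. These counts therefore overstate how stable a direction is. All alternatives reuse the same arrays, so the counts are not separate tests.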
